A study of Homo sapiens with 4 samples.

Results

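The genes described here encode 10 negative-feedback regulators of the mitogen-activated protein kinase (MAPK) pathway: the phosphatase genes DUSP1, DUSP4, DUSP5, DUSP6 and DUSP7, the Sprouty genes SPRY2 and SPRY4, the Sprouty-related genes SPRED1 and SPRED2, and PHLDA1. They were chosen by name from 15279 named rows of the table of normalized read counts, with earlier results of these data known. Their shares set beside those of all tested genes are therefore descriptive. All 10 were present and passed the expression filter that left 14424 genes for testing. The RNA came from MDA-MB-231, a triple-negative human breast cancer line, and from MDA-MB-231Br, its brain metastatic derivative. Both lines grew under the same conditions, in DMEM with 10% FBS, without any treatment named in the labels. Each line had 2 libraries. They are lettered A and B within each line by the order of the table's columns, since a column header gives the line and no sample. Separate cultures are not stated in the labels, and neither is whether the derivative is a clone. All p-values therefore rest on library-to-library spread that could be purely technical.

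Signals from receptor tyrosine kinases and RAS pass through RAF and MEK to the kinase ERK, which phosphorylates transcription factors and so switches on genes that dampen the same pathway. The dual-specificity phosphatases encoded by DUSP genes remove the activating phosphates from MAP kinases, either in the nucleus or in the cytoplasm. Sprouty and SPRED proteins act further upstream, at the level of receptors, RAS and RAF. PHLDA1 encodes a pleckstrin homology-like protein whose transcript is induced by ERK and which restrains receptor and AKT signalling. Transcripts of several of these genes are widely used as a readout of ERK output in tumour cells.

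Promoter windows are shown for 3 members whose values differed in kind: DUSP1, with 1 brain metastatic library above and 1 below the parental pair, and DUSP6 and SPRY4, with both above. RefSeq start sites on build GRCh38.p14 were used for 8 of the 10 members, all but DUSP4 and DUSP5. Each window ran from 250 bases before to 50 after a start. The count table was made on GRCh37, so the coordinates below belong only to the sequences. All 3 genes lie on the minus strand, and the sequences read 5′ to 3′ along the gene. The DUSP1 window is chr5:172771146-172771445, that of DUSP6 is chr12:89352452-89352751 and that of SPRY4 is chr5:142324198-142324497. Capitals mark matches, on either strand, to the cyclic AMP response element TGACGTCA, its core TGACG, the AP-1 site TGANTCA, the ETS site CCGGAAG, the TATA box TATAAA or the CArG box of serum response factor. Every TGACGTCA also contains the core on each strand.
DUSP1: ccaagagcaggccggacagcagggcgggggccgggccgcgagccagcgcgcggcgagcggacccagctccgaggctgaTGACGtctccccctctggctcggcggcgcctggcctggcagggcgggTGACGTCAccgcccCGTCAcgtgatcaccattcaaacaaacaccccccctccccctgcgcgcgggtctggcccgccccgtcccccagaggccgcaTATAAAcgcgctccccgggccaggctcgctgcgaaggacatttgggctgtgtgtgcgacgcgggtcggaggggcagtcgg
DUSP6: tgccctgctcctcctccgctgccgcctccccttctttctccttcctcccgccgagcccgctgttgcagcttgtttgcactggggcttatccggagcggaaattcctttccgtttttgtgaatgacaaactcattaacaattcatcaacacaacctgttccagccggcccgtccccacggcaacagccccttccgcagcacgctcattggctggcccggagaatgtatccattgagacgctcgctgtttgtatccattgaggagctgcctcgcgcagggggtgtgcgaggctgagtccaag
SPRY4: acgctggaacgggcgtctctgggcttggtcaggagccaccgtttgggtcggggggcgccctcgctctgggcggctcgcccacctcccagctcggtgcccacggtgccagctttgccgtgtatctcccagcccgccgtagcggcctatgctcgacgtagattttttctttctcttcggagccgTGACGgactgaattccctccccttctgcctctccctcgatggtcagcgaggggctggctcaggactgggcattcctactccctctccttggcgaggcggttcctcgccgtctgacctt
The DUSP1 window held a full cyclic AMP response element whose first base lies 125 bases upstream of the start. Core matches, some of them parts of that element, began 172, 125, 122 and 111 bases upstream, and a TATA box began 30 bases upstream. Among 35116 RefSeq promoter windows of the same length, 1.85% held the full element, 24.6% the core and 11.5% a TATA box. The SPRY4 window held a core match 68 bases upstream, and the DUSP6 window matched none of the motifs. AP-1 sites, ETS sites and CArG boxes occurred in 7.71%, 10.3% and 1.29% of all windows. Among the other windows, an upstream SPRY2 start had a core match 190 bases upstream. SPRED2 had a core match in one window and AP-1 and TATA matches in another. DUSP7, PHLDA1 and SPRED1 had no match. A match describes letters only, and a window without one says nothing of the factors that act on the gene.

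Reads assigned to named genes numbered 25835225 to 30771290 per library. The parental libraries correlated at r = 0.989 and the brain metastatic libraries at r = 0.971 across the log2(CPM + 0.5) values of tested genes, which are not independent replicates. Brain metastatic library B stood apart from A on the second principal component, which held 18.4% of the variance, and carried 0.17% of its reads in 15 mitochondrial pseudogenes against 0.0425% to 0.0483% in the other libraries. The line markers VIM and CD44 were present, with VIM at 38423 to 119552 normalized counts and CD44 at 30298 to 82078. VIM and FN1 were called higher in brain metastatic cells (log2 fold changes 1.56 and 1.79, limma adjusted p = 0.00473 and 0.00838). These were 2 of 9 tested line markers (22.2% higher, against 8.61% of all tested genes), and 0 were called lower. ESR1 and CDH1 stayed at or below 26.5 and 14.8 normalized counts, and PGR had no row in the table used here. ERBB2 was detected at 955 to 1239 normalized counts. None of 7 fibroblast markers had a row, 1 of 10 macrophage or microglia markers had one (CSF1R, summed level 10 to 12.6 CPM in parental and 1.25 to 2.01 CPM in brain metastatic libraries), and 2 of 9 neural or glial markers did (MBP and SYP, summed level 89.2 to 96.4 CPM and 139 to 147 CPM). Of 6 endothelial markers, 3 had a row (PECAM1, CDH5 and KDR). Their summed level was 4.78 to 8.53 CPM in parental and 26.6 to 30 CPM in brain metastatic libraries. KDR alone had a mean of 20.6 CPM in brain metastatic libraries and is counted again among the receptor tyrosine kinases below. The part of these markers in the results was not tested.

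DUSP4, DUSP6 and SPRY4 rose in brain metastatic cells, and none of the 10 genes fell. DUSP4 was 3.2-fold, DUSP6 2.21-fold and SPRY4 1.8-fold higher. The fitted log2 difference was above 0 for all 10 members, with a median of 0.81 against 0.01 over all genes tested. The test was limma-trend on log2(normalized count + 1), with Benjamini-Hochberg adjustment across the 14424 genes and a cut of 0.05. It called 3 of 10 members higher, where 8.61% of all tested genes were called higher, and 0 lower, where 5.8% were. No member was lower at an unadjusted p below 0.05 either, and edgeR, DESeq2 and limma-voom each called 0 lower. Both brain metastatic libraries lay above both parental libraries for 6 of 10 members, against 31.7% of all tested genes, and below them for 0, against 29.7%. Those 6 genes were DUSP4, DUSP6, SPRY2, SPRY4, SPRED2 and PHLDA1. DESeq2 on the recovered reads called exactly these 6 higher, against 11.3% of all genes higher and 8.92% lower. The edgeR and limma-voom tests called the same 3 as limma-trend, against 8.96% and 8.36% of all genes higher and 6.48% and 6.45% lower. TMM scaling, upper-quartile scaling and no expression filter left DUSP4 and DUSP6, against 8.57%, 8.27% and 7.52% of all genes higher and 6.61%, 6.25% and 4.81% lower. A filter at 5 CPM added PHLDA1 to the 3, against 9.68% higher and 6.71% lower. Pseudocounts of 0.5 and 5 kept the 3, against 8.49% and 8.64% higher and 5.66% and 5.89% lower.

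The count of members depended on each library. A fit that leaves 1 library in a line takes its spread from the other line alone. Calls in such fits, here and below, therefore do not measure the spread of the reduced line. Without parental A, 0 members were called, against 2.15% of all genes higher and 0.77% lower, and without parental B only DUSP4 was, against 2.46% and 0.513%. Without brain metastatic A, 5 members were higher and 1, DUSP1, lower, against 19.8% and 16.7% of all genes. Without brain metastatic B, 7 were higher and 0 lower, against 11.6% and 10.2%.

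**Figure D1:**
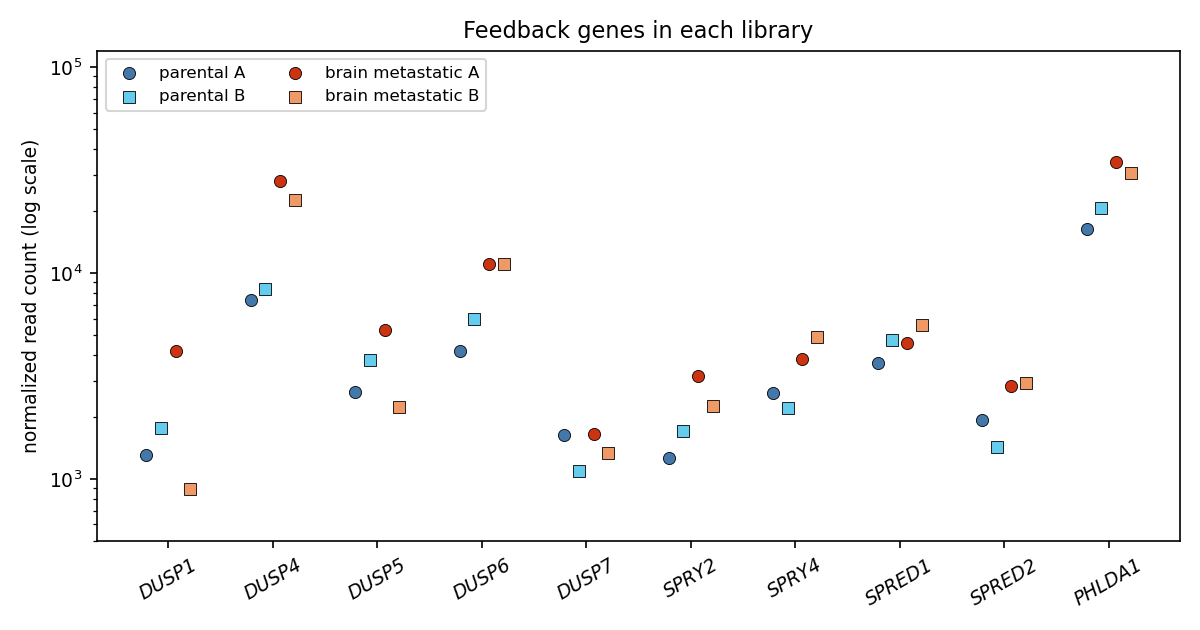
Normalized read count of each feedback gene (log axis) in the 2 parental (blue) and 2 brain metastatic (red and orange) libraries, 1 point per library. The brain metastatic points lie above the parental points for DUSP4, DUSP6, SPRY2, SPRY4, SPRED2 and PHLDA1, while those of DUSP1 and DUSP5 lie on both sides of the parental points.

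**Figure D2:**
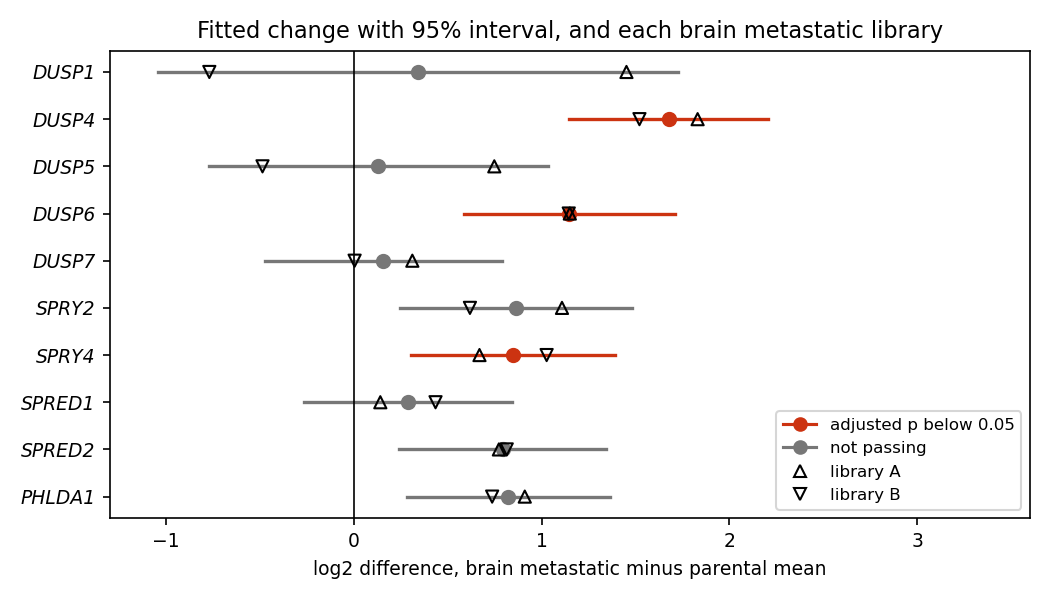
Log2 difference between brain metastatic and parental cells for each feedback gene: filled points are fitted differences with 95% intervals (not adjusted for multiple testing, n = 2 libraries per line), red where the limma adjusted p was below 0.05, and open triangles show each brain metastatic library minus the parental mean. The triangles of DUSP6 and SPRED2 nearly coincide, and those of DUSP1 lie at 1.45 for library A and -0.77 for library B.

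Of the nuclear phosphatases, DUSP4 rose, and DUSP1 and DUSP5 did not pass. DUSP4, an ERK and JNK phosphatase, had normalized counts of 7348 (A) and 8379 (B) in the parental line and of 27916 (A) and 22520.1 (B) in the brain metastatic line. The groups were far apart. The means were 7863 ± 729 and 25218 ± 3815 (SD, n = 2 each), with a log2 fold change of 1.68 ± 0.23 (SE, limma adjusted p = 0.00359). This call held in 12 of 13 alternatives and was lost without parental library A (log2 fold change 1.58, limma adjusted p = 0.0598). By a fixed rule of likeness, the genes with the 4-library profile nearest to that of DUSP4 among 9967 compared were DNER, DRAM1 and EHD3, at distances of 0.0943, 0.127 and 0.14 on the centred log2 scale. DNER, a Notch ligand of neurons, measured 205 and 224 normalized counts in parental and 760 and 658 in brain metastatic libraries. DRAM1, a lysosomal membrane protein gene, and EHD3, an endosomal trafficking gene, had log2 fold changes of 1.63 and 1.57.

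DUSP1, an early response phosphatase that acts on p38, JNK and ERK, measured 1303 (A) and 1770.3 (B) normalized counts in parental cells, but 4156 in brain metastatic A and 890.1 in brain metastatic B. Library A was therefore above both parental libraries and library B below both, a 4.67-fold gap within 1 line. That gap, 2.22 on the log2 scale, was larger than the gap of 98.7% of tested genes between the same libraries. The fitted difference was 0.34 with a 95% interval from -1.05 to 1.73 (limma adjusted p = 0.729), so neither an increase nor a decrease could be called. Without library B the log2 difference was 1.45, and without library A it was -0.77. In each of these fits the gap between the brain metastatic libraries plays no part in the estimated spread.

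DUSP5, a nuclear phosphatase selective for ERK, showed the same order of libraries at a smaller size. It measured 2631 (A) and 3757 (B) normalized counts in parental cells, 5281 in brain metastatic A and 2243 in brain metastatic B. The gap between the brain metastatic libraries was 1.23 on the log2 scale, larger than that of 93.4% of tested genes, and the fitted difference was 0.13 with a 95% interval from -0.77 to 1.04 (limma adjusted p = 0.844). Without library B the difference of DUSP5 was 0.75, and without library A it was -0.49. Library B is the one with the higher share of mitochondrial pseudogene reads, and the part of that in the values of DUSP1 and DUSP5 was not tested.

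Of the cytoplasmic ERK phosphatases, DUSP6 rose and DUSP7 did not pass. DUSP6 measured 4172 (A) and 5951 (B) normalized counts in parental cells and 11059.8 (A) and 11016 (B) in brain metastatic cells. The brain metastatic libraries nearly coincided, and only 0.88% of tested genes had a smaller gap between them, whereas 80.3% had a smaller gap than DUSP6 between the parental libraries. The log2 fold change was 1.15 ± 0.24 (SE, n = 2 each, limma adjusted p = 0.0203). DUSP6 was called in all 9 alternatives that keep every library, and lost the call without parental library A (0.89, limma adjusted p = 0.192) or B (1.40, limma adjusted p = 0.0652).

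DUSP7 measured 1636 and 1089 normalized counts in parental and 1657 and 1338 in brain metastatic libraries. The lines overlapped, and the spread between the parental libraries exceeded the difference between the lines. The fitted difference was 0.16 with a 95% interval from -0.47 to 0.79 (limma adjusted p = 0.725). DUSP7 was not called in any of 13 alternatives.

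None of the 3 other MAP kinase phosphatases that could be tested was called, against 14.4% of all tested genes. Limma gave 1 of them, DUSP8, an unadjusted p below 0.05. DUSP10 and DUSP16, which act on p38 and JNK, measured 1399.7 to 1513 and 542 to 677 normalized counts in parental libraries and 1002 to 1361 and 668 to 837 in brain metastatic libraries. Their fitted differences were -0.32 and 0.30 (limma adjusted p = 0.412 and 0.455). DUSP8, a p38 and JNK phosphatase, had 14 and 16 reads in parental and 41 and 37 in brain metastatic libraries (limma adjusted p = 0.0723). DUSP2 and DUSP9 had at most 9 reads in any library and did not pass the filter. Among 15 tested atypical dual-specificity phosphatases, which mostly lack MAP kinase docking, limma, edgeR and DESeq2 each called 0. Over all tested genes limma called 14.4%, edgeR 8.96% higher and 6.48% lower, and DESeq2 11.3% higher and 8.92% lower. At an unadjusted limma p below 0.05, 0 of the 15 were higher and 2 lower, against 2467 and 2123 of all 14424 genes. The median log2 difference of the 15 was -0.12. SSH1, the one with the most reads, had a difference of -0.12 (limma adjusted p = 0.751).

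Levels of different genes were compared per kilobase of the longest annotated transcript. In parental cells the summed signal of the 10 MAP kinase phosphatase genes was 5143 and 6175 normalized reads per kb in libraries A and B, spread over several members. DUSP4 held 25.2%, DUSP5 21.9%, DUSP6 20.2% and DUSP1 13.4% of it on average. In brain metastatic cells the sum was 12687 (A) and 8969 (B). DUSP4 then held 39.7% and 45.3%, against 24.5% to 25.8% in parental libraries. DUSP5 held 20% and 23.8% in parental and 16.3% and 9.78% in brain metastatic libraries, and DUSP10 held 11% and 8.47% against 2.95% and 5.67%. Neither gene's shares overlapped between the lines, nor did those of DUSP7 (9.52% and 5.28% against 3.91% and 4.47%). Shares were not tested, and a share also falls when other genes raise the sum. The DUSP5 level itself was 1029 and 1469 per kb in parental and 2065 (A) and 877 (B) in brain metastatic libraries. DUSP1 held 16.2% in library A and 4.92% in library B.

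**Figure D3:**
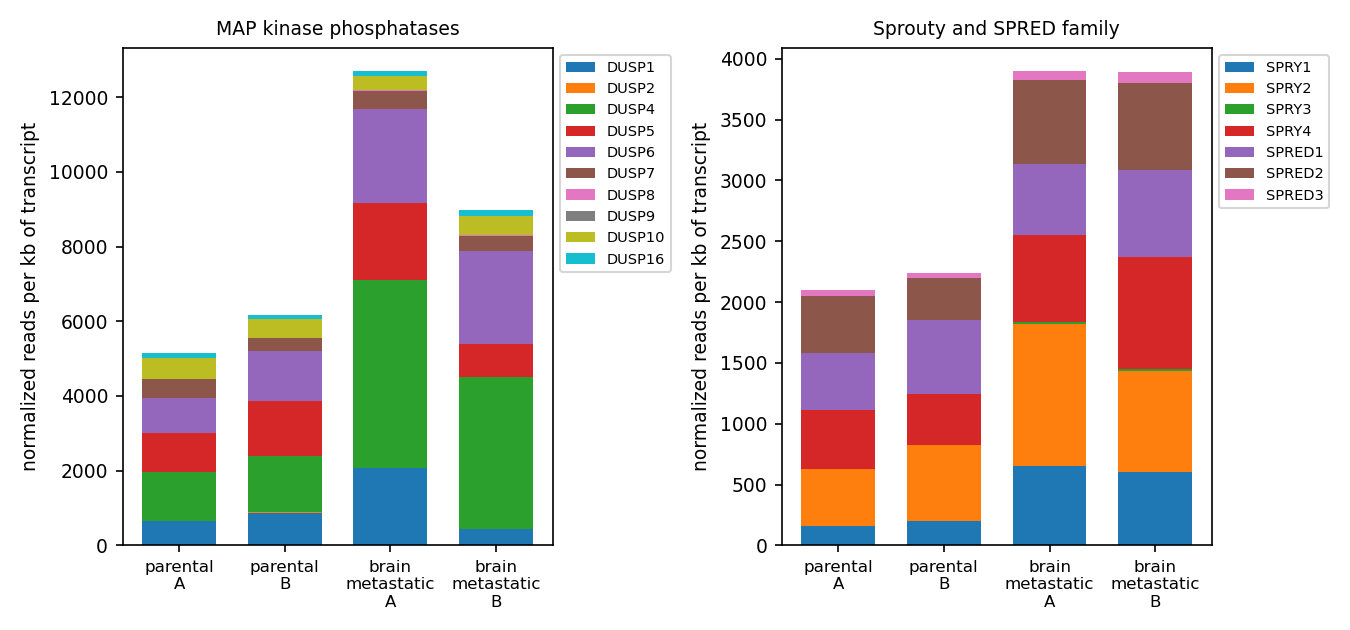
Normalized reads per kilobase of transcript in each library, stacked by gene, for the MAP kinase phosphatase genes (left) and the Sprouty and SPRED genes (right), both axes starting at 0. The DUSP4 block grows from 1327 and 1513 in parental to 5042 and 4067 in brain metastatic libraries, and the Sprouty and SPRED sum from 2103 and 2237 to 3896 and 3890.1.

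SPRY4 and, outside the 10, SPRY1 and SPRY3 rose in brain metastatic cells. SPRY4, an inhibitor of receptor-driven RAS and ERK signalling, measured 2611 (A) and 2219 (B) normalized counts in parental cells and 3828 (A) and 4905 (B) in brain metastatic cells. Both brain metastatic values were above both parental values, with a log2 fold change of 0.85 ± 0.24 (SE, n = 2 each, limma adjusted p = 0.0491). The call lay at the threshold, with adjusted p from 0.0183 to 0.0545 over the alternatives that keep all libraries, 6 of 9 of them below 0.05. It was lost without parental A (0.96, limma adjusted p = 0.174), parental B (0.73, limma adjusted p = 0.373) or brain metastatic B (0.67, limma adjusted p = 0.0858). SPRY4-AS1, a noncoding neighbour, measured 69.1 and 97 normalized counts in parental and 35.5 and 32.8 in brain metastatic libraries (limma adjusted p = 0.072). SPRY4-IT1, which lies within SPRY4, has no row in the table, and its reads cannot be told apart here from those of SPRY4. The same holds for POC1B-DUSP6 at DUSP6, LOC124906238 at DUSP7 and PHLDA1-AS1 at PHLDA1. The strand setting is not stated, and it would separate only genes on opposite strands.

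SPRY2, which binds CBL and GRB2 and blocks ERK activation below receptors, measured 1269 and 1700.4 normalized counts in parental and 3168 and 2255 in brain metastatic libraries. The groups did not overlap, and the difference of 0.86 ± 0.27 (SE, n = 2 each) did not pass (limma adjusted p = 0.0682, and DESeq2 adjusted p = 0.0314). Its 95% interval ran from 0.25 to 1.48 before adjustment. The difference was 0.65 and 1.07 without parental A and B in turn. Without brain metastatic A and B in turn it was 0.62 and 1.11.

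The remaining Sprouty genes, which are not among the 10, both passed. SPRY1 measured 409 and 519.9 normalized counts in parental and 1698 and 1565 in brain metastatic libraries (log2 fold change 1.82 ± 0.25 SE, limma adjusted p = 0.00352). SPRY3 had 8 and 6 reads in parental and 106 and 162 in brain metastatic libraries (log2 fold change 4.19 ± 0.47 SE, limma adjusted p = 0.00163). Each was called in every fit that left out 1 library. SPRY3 lies in a pseudoautosomal region, and depending on how its copies were counted its reads are uncertain. The size of a fitted change depends on the pseudocount at so low a parental level.

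None of the SPRED genes passed. SPRED2 measured 1926 and 1429 normalized counts in parental and 2834 and 2917 in brain metastatic libraries. The brain metastatic libraries were 0.04 apart on the log2 scale and both above the parental libraries, and the difference of 0.79 ± 0.24 (SE, n = 2 each) missed the threshold (limma adjusted p = 0.0626, and DESeq2 adjusted p = 0.0391). The difference was 1.01 and 0.58 without parental A and B in turn. Without brain metastatic A and B in turn it was 0.81 and 0.77. SPRED1, which brings neurofibromin to RAS at the membrane, measured 3643 and 4716 in parental and 4570.1 and 5604 in brain metastatic libraries. Its lines overlapped (difference 0.29, 95% interval -0.26 to 0.84, limma adjusted p = 0.442), and it was not called in any of 13 alternatives. SPRED3 measured 241 and 188 in parental and 328 and 425 in brain metastatic libraries (difference 0.81, limma adjusted p = 0.104).

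Of the 7 Sprouty and SPRED genes, SPRY1, SPRY3 and SPRY4 were called higher (42.9%, against 8.61% of all tested genes), and 6 of 7 had both brain metastatic libraries above both parental libraries (against 31.7% of all tested genes). Per kilobase, the family's summed signal was 2103 and 2237 normalized reads in parental and 3896 and 3890.1 in brain metastatic libraries. SPRY1 took 7.45% and 8.91% of it in parental and 16.7% and 15.4% in brain metastatic libraries. SPRED1 took 22.3% and 27.1% in parental and 15.1% and 18.5% in brain metastatic libraries. The shares of SPRY2 and SPRY4 overlapped between the lines.

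PHLDA1 measured 16335 (A) and 20658.5 (B) normalized counts in parental cells and 34524 (A) and 30606 (B) in brain metastatic cells. The groups did not overlap, and the difference of 0.82 ± 0.23 (SE, n = 2 each, 95% interval 0.28 to 1.36) lay just outside the threshold (limma adjusted p = 0.0523). DESeq2 called it (adjusted p = 0.0211) and edgeR's quasi-likelihood test did not (adjusted p = 0.0635). The difference of PHLDA1 was 0.65 and 0.99 without parental A and B in turn. Without brain metastatic A and B in turn it was 0.74 and 0.91. Its relatives did not pass. PHLDA2 measured 928 and 1001 normalized counts in parental and 1553 and 1066 in brain metastatic libraries (limma adjusted p = 0.313). PHLDA3, a p53 target that competes with AKT at membranes, measured 166 and 244 in parental and 105 and 65.7 in brain metastatic libraries (difference -1.27, limma adjusted p = 0.0583), and DESeq2 called it lower.

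Per kilobase, PHLDA1 had the highest level of the 10 in parental cells, with 2292 ± 379 normalized reads per kb, followed by DUSP4 with 1420.2 ± 132, DUSP5 with 1249 ± 311 and DUSP6 with 1150.4 ± 286 (SD, n = 2 each). DUSP1 with 761 ± 164, SPRY2 with 548 ± 113, SPRED1 with 537 ± 97.5, SPRY4 with 452 ± 51.7, SPRED2 with 409 ± 85.7 and DUSP7 with 408 ± 116 followed. From DUSP4 down, the SD ranges of neighbours in this order overlapped, and PHLDA1 lay apart from DUSP4. In brain metastatic cells DUSP4 came first with 4554 ± 689 and PHLDA1 second with 4036 ± 343, within their spreads of each other. DUSP6 followed with 2509 ± 6.98, apart from both of its neighbours. DUSP5 with 1471 ± 840 and DUSP1 with 1249.7 ± 1144 could not be ordered, given their spread. SPRY2, SPRY4, SPRED2, SPRED1 and DUSP7 closed the order with 1001 ± 238, 816 ± 142, 702 ± 14.4, 654 ± 93.9 and 448 ± 67.4. Of these, SPRED1 and DUSP7 lay apart, and the SD ranges of the other neighbours overlapped. Over all libraries, every member exceeded at least 69.9% of tested genes in level per kilobase, and PHLDA1 and DUSP4 exceeded 96.9% and 96.6%.

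Other genes of the pathway were counted in lists compiled for this work with earlier results of these data known. Their shares are therefore descriptive. Of 40 tested ERK output transcripts outside the 10, 10 were called higher and 2 lower (30% called, against 14.4% of all tested genes), with a median log2 difference of 0.43. The early response genes EGR1 and JUNB were among those higher. EGR1, JUNB, FOSB, JUN and IER2 are counted again among the handling and heat stress genes below, so these lists are not separate counts. EGR1 measured 186 and 299.7 normalized counts in parental and 828 and 1054 in brain metastatic libraries (log2 fold change 1.98 ± 0.31 SE, limma adjusted p = 0.00628), and JUNB 406 and 410.3 against 1607 and 1513 (1.93 ± 0.23 SE, limma adjusted p = 0.0022). Both were high in brain metastatic library A and in library B, unlike DUSP1. EPHA4, an ephrin receptor gene, and PLAUR, the urokinase receptor gene, had the largest increases among genes at 5 CPM or more (log2 fold changes 4.18 and 2.20). The transcription factor genes ETS2 (-1.08) and ELK1 (-1.05) fell. They encode factors that act below ERK, and the list does not separate such genes from transcripts that read ERK output. Members of the same list that are often read with DUSP6 and SPRY4 as ERK output, named here for that use and outside the naming rule, did not pass: CCND1 differed by -0.02, ETV4 by -0.13, ETV5 by 0.32 and EPHA2 by 0.59 on the log2 scale (limma adjusted p from 0.101 to 0.974). Fewer genes of the list were called when parental A or B was left out. More were called when brain metastatic A or B was, and all tested genes moved the same way.

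EGR1, JUNB, FOSB, JUN, IER2, ZFP36, NR4A2 and NR4A3, the 8 genes called higher of 21 handling and heat stress genes (38.1%, against 8.61% of all tested genes), are also early response genes. Several of them respond to handling of cells as well as to ERK. HSPA1A, HSPA1B and the other heat shock genes on that list did not pass. The part of handling in the levels of the 10 feedback genes was not tested. Calls on that list became fewer without parental A or B and more without brain metastatic A or B, as did those over all tested genes.

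Other feedback genes of receptors and ERK had 2 of 25 tested members higher and 1 lower. At 8% higher and 12% called, against 8.61% and 14.4% of all tested genes, this list was near the background in calls. Its passing genes are given only as single values. Its median log2 difference was 0.44, against 0.01 over all tested genes. Both brain metastatic libraries lay above both parental libraries for 12 of the 25, against 31.7% of all tested genes. They lay below for 7, against 29.7%. CIC, a repressor that ERK relieves, rose (log2 fold change 1.26, limma adjusted p = 0.0308), and RGS4, a regulator of G protein signalling, fell (-2.09, limma adjusted p = 0.0336). RGS16 rose as well (2.90), from 4 and 7 reads in parental to 34 and 53 in brain metastatic libraries. At so few reads the size of its change is uncertain. The next genes were named after their values were seen. ERRFI1, an inhibitor of the EGF receptor, measured 10669 and 16374 normalized counts in parental and 27942 and 20346 in brain metastatic libraries without passing (limma adjusted p = 0.0835). IL17RD, a membrane inhibitor of FGF signalling, measured 2316 and 2288 in parental and 1528 and 1275 in brain metastatic libraries, also without passing (limma adjusted p = 0.0695). With parental A or B left out, fewer genes of this list were called, and without brain metastatic A or B more were, as over all tested genes.

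**Figure D4:**
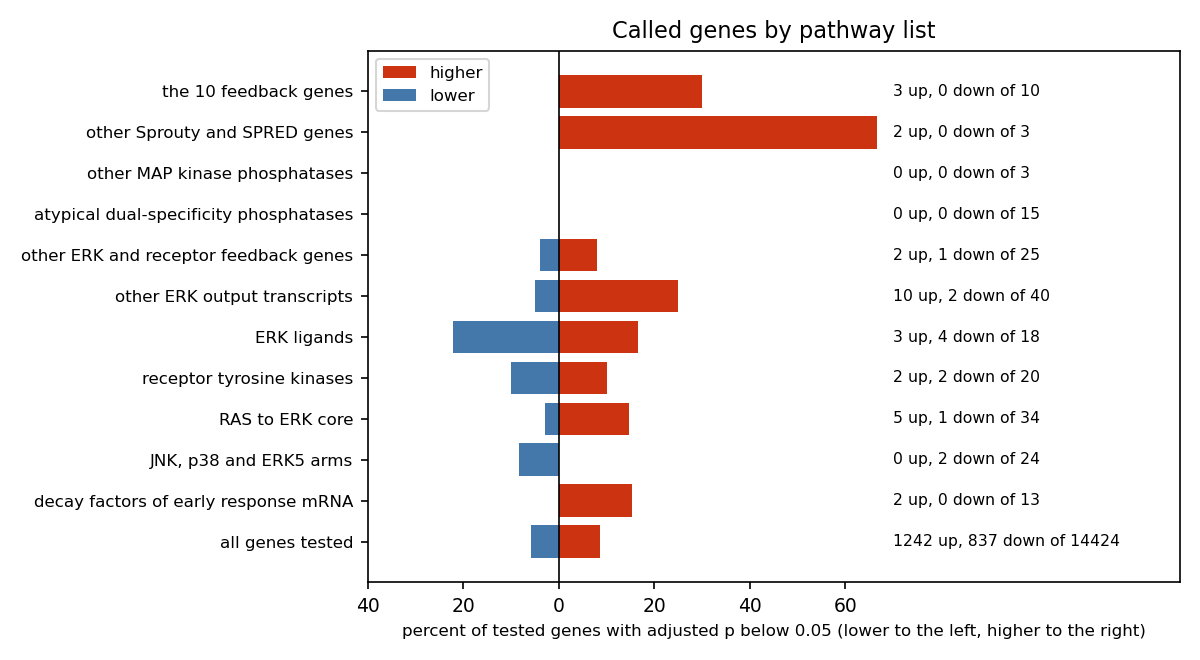
Percent of tested genes in each pathway list with limma adjusted p below 0.05, higher in brain metastatic cells to the right (red) and lower to the left (blue), with counts printed at the right edge. The 10 feedback genes had 3 higher and 0 lower, ERK output transcripts 10 higher and 2 lower of 40, and all genes tested 1242 higher and 837 lower of 14424.

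Genes acting above ERK that were called went in both directions. The shares called in the receptor, RAS to ERK and mRNA decay lists were not far from the background. Their passing genes are given as single values. Among 18 tested ligands of ERK-coupled receptors, 3 were higher and 4 lower (38.9% called, against 14.4% of all tested genes). FGF5 rose most (log2 fold change 2.77, limma adjusted p = 0.00151), followed by NRG2 (2.64). NRG2 had only 8 and 29 reads in parental and 102 and 84 in brain metastatic libraries. FGF1 rose from 101 and 128 normalized counts to 454 and 229.9 (limma adjusted p = 0.0372). AREG, an EGF receptor ligand, fell from 687 and 1758 normalized counts to 173 and 110.2 (log2 fold change -2.98, limma adjusted p = 0.00523). IGF2 (-1.71) and KITLG (-1.57) fell as well, as did TGFA, from 3847 and 5683 to 2276 and 2384 normalized counts (limma adjusted p = 0.0358). Of 20 tested receptor tyrosine kinases 20% were called, against 14.4% of all genes. KDR (3.10) and MERTK (1.70) rose and PDGFRB (-4.77) and TYRO3 (-1.33) fell. EGFR measured 12650.3 and 9027 normalized counts in parental and 15626 and 27701 in brain metastatic libraries and did not pass (limma adjusted p = 0.0807).

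Of 34 tested genes from the adaptors and RAS to ERK and its effector kinases, 5 were higher and 1 lower (17.6% called, against 14.4% of all genes). The ribosomal S6 kinase genes RPS6KA2 and RPS6KA6 rose (2.64 and 2.59), as did SHC3 (1.53), KSR1 (1.59) and MKNK1 (1.02), and RPS6KA3 fell (-0.92). BRAF, MAP2K1 and MAPK3, which encode kinases of the cascade itself, differed by -0.71, 0.18 and -0.18 on the log2 scale and did not pass (limma adjusted p from 0.103 to 0.725). NRAS did not pass either (-0.75, limma adjusted p = 0.0547). In the JNK, p38 and ERK5 arms, whose kinases DUSP1, DUSP4, DUSP10 and DUSP16 can also dephosphorylate, 2 of 24 genes passed (8.33%, against 14.4% of all genes). Those were MAPK13 (-1.19, limma adjusted p = 0.0176), a p38 kinase gene, and RPS6KA4 (-0.93, limma adjusted p = 0.0392), which were lower. Genes of these arms were also called higher elsewhere: DESeq2 called 1 higher and 3 lower, against 11.3% and 8.92% of all tested genes. Without brain metastatic A or B, genes of these arms were called in both directions, as over all tested genes. Of 13 genes for factors of mRNA decay, ZFP36L1 (1.09) and ZFP36 (1.07), which bind AU-rich elements of early response transcripts, rose (15.4% called, against 14.4% of all genes).

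Calls among these other genes varied with the library left out. SPRY1, SPRY3, JUNB, EPHA4, PLAUR, FGF5, AREG, KDR, PDGFRB, RPS6KA2 and RPS6KA6 were called in each of the 4 fits that left out 1 library. EGR1 and MERTK were called in 3 of 4 (limma adjusted p up to 0.07 and 0.0634). RGS4 had a log2 fold change between -2.98 and -1.21, CIC between 0.90 and 1.61, FGF1 between 1.01 and 1.99 and NRG2 between 1.70 and 3.59 in those fits. Among the remaining genes named as passing in these lists, NRG2 was called in 3 of 4, MKNK1 in 1 of 4 and the others in 2 of 4, apart from NR4A2 with 3. Fewer genes of the ligand, receptor, RAS to ERK, JNK, p38 and ERK5, and decay lists were called without parental A or B. More were called without brain metastatic A or B. Over all tested genes the counts moved the same way. With all libraries DESeq2 called 6 ligands higher and 5 lower, 5 receptors higher and 2 lower, and 5 RAS to ERK genes higher and 3 lower. It called 4 of the other feedback genes higher and 2 lower. Over all tested genes DESeq2 called 11.3% higher and 8.92% lower.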

How the data were processed

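RNA-seq libraries of both lines were compared, 2 of each. HISAT2, featureCounts, DESeq2 and build GRCh37 are named, without versions, per the submitters' processing notes. Annotation, strand setting and gene filters: not given in the sources used here. The authors deposited a normalized read signal (reads over a size factor) under a name that speaks of counts. Dividing each library by its smallest step recovered whole reads for 100% of values within 0.01 reads, and a read is worth 0.0325 to 0.0387 CPM. The test fixed for such a unit was limma-trend on log2(value + 1), which called 2079 genes, while the quasi-likelihood test of edgeR, run on recovered reads as an alternative, called 2228. No column was left unused. The 67 unnamed rows (0.031% to 0.0369% of reads) were left out, and 20 date-like names are not printed.

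The filter was edgeR's filterByExpr (minimum count 10, minimum total 15), which removed 855 genes. Adjustment followed Benjamini and Hochberg. Fold changes are brain metastatic over parental on the log2(value + 1) scale and understate low genes. The members and gene lists were chosen with earlier results of these data known. Besides the members and their families, the naming rule took from each list up to 2 passing genes per direction at 5 CPM or more, or the most abundant where none passed, and the 3 profiles nearest to DUSP4 at 10 CPM or more. Other genes were named after their values were seen. Transcript lengths came from GENCODE v29 and promoters from RefSeq. Chi-square over degrees of freedom was 58.8 within the parental and 118 within the brain metastatic pair, so no library is a copy. Alternatives were edgeR, DESeq2, limma-voom, 2 scalings, 2 filters, pseudocounts of 0.5 and 5, and leaving out each library. On simulated data of this comparison with 14424 genes, 10% of 2-fold, 80% of 4-fold and 96% of 8-fold changes were recovered. The simulation changed 50 genes at each fold size, far fewer than the 2079 called here. Its adjusted cut was therefore stricter than that of the real fit. Tools were Python 3.11.15, R 4.3.3, DESeq2 1.42.0, edgeR 4.0.16 and limma 3.58.1.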

Additional observations from a re-analysis of the deposited data

How the results depend on the processing

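With all libraries kept, the number of members called higher was 2 under TMM scaling, upper-quartile scaling and no expression filter, 4 with a filter at 5 CPM, 6 with DESeq2 and 3 otherwise, and none was called lower. DESeq2 called 2910 genes in all. Leaving out 1 library at a time gave 0 to 7 members higher, 0 to 1 lower and 421 to 5257 genes called in all, the low end without parental library A and the high end of genes without brain metastatic library A. Over these fits the log2 difference of DUSP1 ran from -0.77 to 1.45, of DUSP5 from -0.49 to 0.75 and of DUSP7 from -0.14 to 0.45. It was below 0 for DUSP1 and DUSP5 without brain metastatic library A, for DUSP5 also without parental library A (-0.13), and for DUSP7 without parental library B. The cause was not tested. Among recomputed member values, 106 kept direction and call, 11 gained a call, 9 lost one and 4 changed sign. The line reduced to 1 library is assumed to vary like the other. No paired analysis was possible because the table's columns carry no replicate numbers, and the planned replicate block was not run. With 2 libraries per line, most simulated 2-fold changes were missed, though fewer genes were changed there than were called here. DUSP6 at 2.21-fold and SPRY4 at 1.8-fold did pass. A member that did not pass is not shown to be unchanged.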
